A study of Mus musculus with 13 samples.

Results

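The major histocompatibility complex (MHC) class II genes examined here were Cd74, H2-Aa, H2-Ab1, H2-Eb1, H2-DMa and H2-DMb1, together with Ciita, the gene of their transactivator. They were chosen by gene symbol, all 7 were found among the 36287 genes of the deposited table, and all 7 passed the filter on low counts with 22065 genes in all. The RNA came from the hippocampus of 5xFAD mice, in which transgenes bearing mutations of familial Alzheimer's disease are driven by the neuronal Thy1 promoter, and every animal in every group belongs to this line. Poly(A) RNA was sequenced in bulk from 4 mice given saline (animals 18, 19, 32 and 38), 4 given Aducanumab, an antibody to aggregated amyloid beta (24, 50, 56 and 58), and 5 given ACLP-NT, an agent known here only by its code name (17, 27, 49, 53 and 55). The labels give no dose, duration, age, sex or batch. No wild-type animals were analysed here, so saline-treated 5xFAD mice were the background for every value.

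MHC class II molecules present peptides from ingested proteins to CD4+ T cells. H2-Aa and H2-Ab1 encode the alpha and beta chains of the I-A molecule, and H2-Eb1 encodes the beta chain of I-E. Cd74 encodes the invariant chain, which occupies the groove of newly made class II molecules and guides them to endosomes, where H2-DMa and H2-DMb1 form the heterodimer that exchanges the remnant of the invariant chain for antigenic peptide. CIITA binds no DNA itself and acts through the RFX and NF-Y factors bound at the X and Y boxes of class II promoters. In the brain, class II expression is known from border-associated macrophages, dendritic cells and microglia near amyloid plaques.

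The RefSeq promoter table of build GRCm38.p6 held entries for 4 of the 7 genes, H2-Aa, H2-Eb1, H2-DMa and H2-DMb1. The 250 bases upstream of each start site were searched for the X1 box core (11 letters, of which 8 are fixed) and the Y box core GATTGG. These do not overlap each other in the paired search. Shares over all windows count both strands, whereas the positions and missing X1 matches given for single genes refer to the gene's strand. The H2-Eb1 window also held 1 Y match on the opposite strand. The stretches shown hold matches to both cores (H2-Eb1 and H2-DMb1) or to the Y core alone (H2-Aa). A stretch without a match to the X1 letters searched may still hold an X box of other letters. The stretch of H2-Eb2, a class II gene with almost no transcript in these libraries, is set beside them. Sequences run 5′ to 3′ along the gene's strand, with X1 and Y matches in capitals.
H2-Eb1: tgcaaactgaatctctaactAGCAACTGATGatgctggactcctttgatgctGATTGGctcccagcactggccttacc
H2-DMb1: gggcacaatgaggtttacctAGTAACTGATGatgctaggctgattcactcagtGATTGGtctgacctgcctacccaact
H2-Aa: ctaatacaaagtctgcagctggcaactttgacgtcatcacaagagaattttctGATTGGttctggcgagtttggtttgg
H2-Eb2: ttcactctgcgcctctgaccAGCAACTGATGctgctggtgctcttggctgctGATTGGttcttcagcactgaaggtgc

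The H2-Eb1 stretch lies at chr17:34305755-34305832 on the plus strand of GRCm38.p6, with the X1 match 92 bases and the Y match 60 bases upstream of the start site. The H2-DMb1 stretch lies at chr17:34153076-34153154 on the plus strand, with matches 95 and 62 bases upstream. The H2-Aa stretch lies at chr17:34287847-34287925 on the minus strand, with the Y match 49 bases upstream and no X1 match at class II spacing even with 3 mismatches. The H2-Eb2 stretch lies at chr17:34325522-34325599 on the plus strand, with matches 133 and 101 bases upstream. Of 32851 promoter windows of the same length, 0.816% held X1, 14.6% held Y, and 4 windows (0.0122%) held X1 followed by Y after a gap of 10 to 30 bases. These 4 belonged to H2-DMb1, H2-Eb1, H2-Eb2 and Hnrnpa1. With 1 mismatch in X1 allowed, the pair was in 49 windows (0.149%), H2-DMb2 and H2-Ob among them. H2-DMa had no Y match, and so no pair, in the window of its first listed start site. In that of the second it had a Y match 199 bases upstream and no X1 match at class II spacing. X1 matches outside a pair were not listed by gene. A match describes letters in a window and was not tested as a binding site.

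The libraries were deep, with 53642019 to 69734713 total counts. Class II counts ran from 77 counts (Ciita) to 2256 counts (Cd74) in a library. At the smallest count of each gene, counting error alone was 4.57% for Cd74, 3.86% for H2-DMa, 8.03% for H2-DMb1, 8.94% for H2-Aa, 8.36% for H2-Ab1, 11.3% for H2-Eb1 and 11.4% for Ciita. Libraries differed within every group in choroid plexus RNA, whose 10 marker genes summed to 49.8 to 5187 CPM (counts scaled to the TMM-adjusted library size) across the 13 libraries. Aducanumab 58 stood at the top of this range and also of the marker sums of border-associated macrophages, meningeal fibroblasts, monocytes and neutrophils, T and NK cells, and the plaque-associated microglial state. Several results that rest on this library are therefore given with and without it. Relations with group means subtracted and the rankings of genes by likeness to a class II gene were computed only with it.

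Levels between genes were compared in FPKM, the deposited unit in which fragments are scaled to gene length and library total. Cd74, the invariant chain, had the highest mean level (10.7 FPKM over 13 libraries), followed by the peptide editors H2-DMa (3.67 FPKM) and H2-DMb1 (2.08 FPKM). The chain genes followed, with means of 1.67 FPKM for H2-Eb1, 1.55 FPKM for H2-Ab1 and 1.20 FPKM for H2-Aa. Ciita was lowest (0.181 FPKM). Cd74 was above H2-DMa, H2-DMa above H2-DMb1, H2-Ab1 above H2-Aa, and H2-Aa above Ciita in 13 of 13 libraries. H2-DMb1 exceeded H2-Eb1 in 10 of 13 libraries and H2-Eb1 exceeded H2-Ab1 in 9 of 13, so these neighbours did not keep their order.

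Ciita, the transactivator, was at 0.154, 0.232, 0.268 and 0.165 FPKM in saline 18, 19, 32 and 38. It was at 0.166, 0.127, 0.133 and 0.181 FPKM in Aducanumab 24, 50, 56 and 58, and at 0.20, 0.181, 0.166, 0.198 and 0.176 FPKM in ACLP-NT 17, 27, 49, 53 and 55. Saline 32 and saline 19 were highest, Aducanumab 50 and 56 were lowest, and all 3 groups overlapped. The gene lies at chromosome 16, 10297923 to 10344290, on the plus strand (ENSMUSG00000022504; positions of the 7 genes are those of the deposited table, for which no build is named).

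Cd74 (ENSMUSG00000024610; chromosome 18, 60936920 to 60945718, plus strand) was at 9.23, 17.2, 11.1 and 13.4 FPKM in saline 18, 19, 32 and 38. In Aducanumab 24, 50, 56 and 58 it was at 11.8, 7.33, 11.4 and 21.4 FPKM, and in ACLP-NT 17, 27, 49, 53 and 55 at 7.06, 4.27, 9.04, 11.5 and 4.53 FPKM. The 4 lowest ACLP-NT libraries were below all 4 saline libraries, whereas ACLP-NT 53 lay inside the saline range. The highest library of all was Aducanumab 58, and the groups overlapped in every pairing.

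H2-Aa, the I-A alpha chain (ENSMUSG00000036594; chromosome 17, 34501718 to 34506797, minus strand), was at 0.821, 1.78, 1.27 and 1.40 FPKM in saline and 1.38, 0.573, 0.954 and 3.0 FPKM in Aducanumab, in the same order of animals. In ACLP-NT it was at 0.845, 0.533, 0.894, 1.65 and 0.468 FPKM. Its partner H2-Ab1, the I-A beta chain (ENSMUSG00000073421; chromosome 17, 34476663 to 34488393, plus strand), was at 0.974, 2.51, 1.5 and 1.9 FPKM in saline, 1.75, 0.973, 1.44 and 3.29 FPKM in Aducanumab, and 0.885, 0.823, 1.22, 2.02 and 0.810 FPKM in ACLP-NT. Both chains were highest in Aducanumab 58, next highest in saline 19, and lowest in ACLP-NT 55.
H2-Eb1, the I-E beta chain (ENSMUSG00000060586; chromosome 17, 34524841 to 34535648, plus strand), was at 1.05, 3.12, 1.53 and 2.31 FPKM in saline, 1.13, 0.645, 1.25 and 4.2 FPKM in Aducanumab, and 1.21, 0.911, 1.44, 2.17 and 0.750 FPKM in ACLP-NT. The same 2 libraries led, but the lowest was Aducanumab 50.

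H2-DMa, the DM alpha chain (ENSMUSG00000037649; chromosome 17, 34338515 to 34358075, plus strand), was at 3.50, 4.91, 3.66 and 3.65 FPKM in saline, 3.8, 3.66, 3.56 and 3.18 FPKM in Aducanumab, and 3.89, 3.27, 3.39, 3.37 and 3.88 FPKM in ACLP-NT. Saline 19 stood above all others, and Aducanumab 58, where Cd74 and the chains peaked, was the lowest. H2-DMb1, the DM beta chain (ENSMUSG00000079547; chromosome 17, 34372046 to 34379204, plus strand), was at 1.76, 3.21, 2.24 and 2.28 FPKM in saline, 2.03, 1.5, 2.09 and 2.80 FPKM in Aducanumab, and 2.21, 1.42, 2.18, 1.84 and 1.46 FPKM in ACLP-NT. Its top libraries, saline 19 and then Aducanumab 58, were those of the chains in the reverse order.

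**Figure D1:**
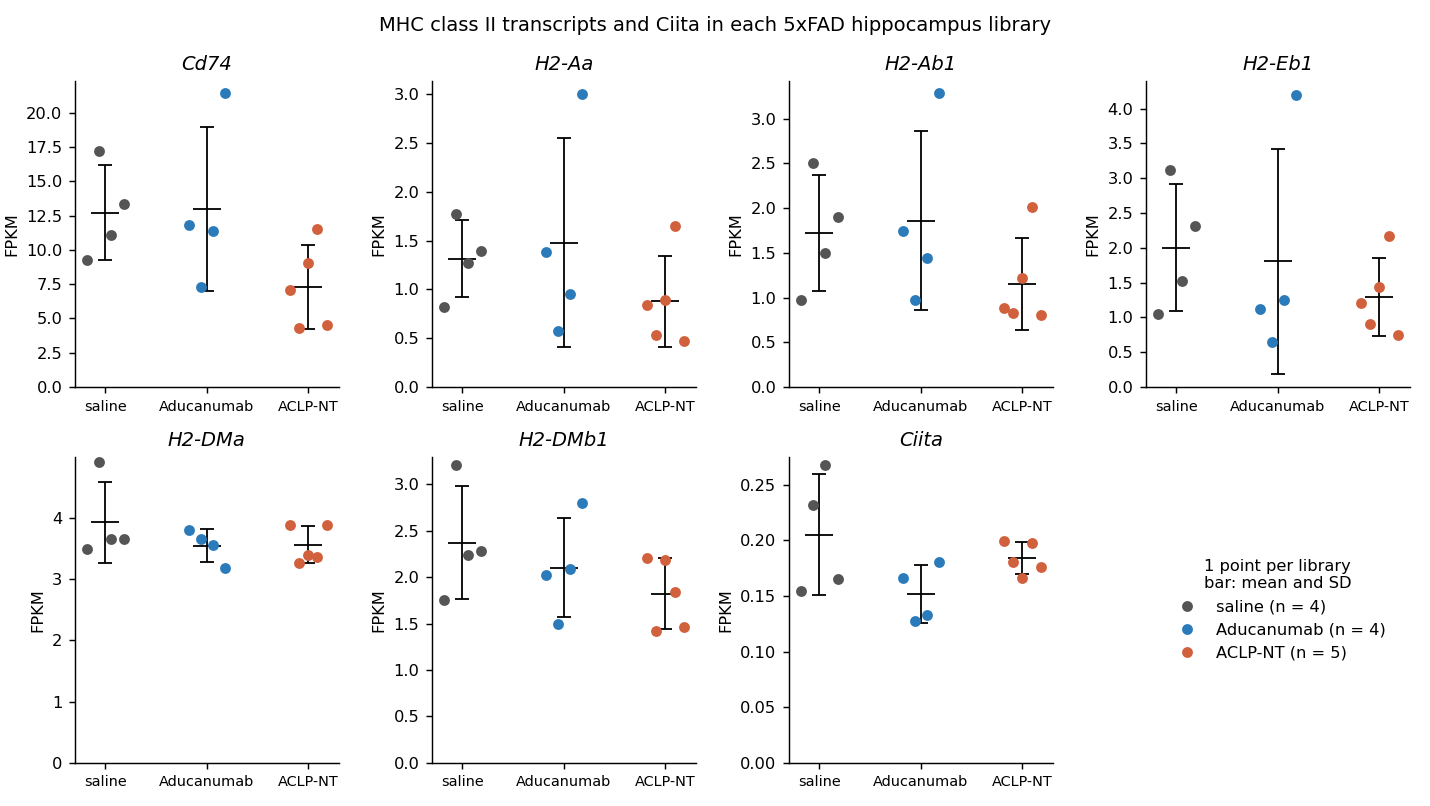
FPKM (y axis, linear from 0) of the 7 genes in each of the 13 hippocampus libraries by treatment group (x axis), with bars for the mean and SD. Aducanumab 58 is the top point for Cd74 (21.4 FPKM), H2-Aa, H2-Ab1 and H2-Eb1, and the groups overlap in every panel.

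Within a library the class II levels kept some ratios and not others. The FPKM ratio of H2-Aa to H2-Ab1, the partners of I-A, ran from 0.578 to 0.956 with a median of 0.736, a 1.65-fold range. The ratio of Cd74 to H2-Aa ran from 6.99 to 12.8, a 1.83-fold range, and that of H2-Eb1 to H2-Ab1 from 0.645 to 1.37, a 2.12-fold range. In contrast, Cd74 to H2-DMa ran from 1.17 to 6.75, a 5.79-fold range, and Cd74 to Ciita from 23.6 to 118.6, a 5.02-fold range. The partners of the DM heterodimer, H2-DMa to H2-DMb1, had a 2.34-fold range (1.14 to 2.66). Aducanumab 58 set an end of these last 3 ranges. Without it they were 3.13-fold for Cd74 to H2-DMa (1.17 to 3.65), 3.62-fold for Cd74 to Ciita (23.6 to 85.7) and 1.73-fold for H2-DMa to H2-DMb1 (1.53 to 2.66), and the ends of the other 3 ranges were the same.

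In ACLP-NT against saline, no class II gene passed the adjusted threshold, and Cd74 had the largest difference. Cd74 averaged 13.2 ± 5.49 CPM (SD, n = 5) in ACLP-NT and 23.0 ± 6.21 CPM (SD, n = 4) in saline, a log2 fold change of -0.80 (SE 0.319, 95% interval -1.49 to -0.12), or 0.573 times the saline level. Its edgeR quasi-likelihood p was 0.0244 before and 0.788 after Benjamini-Hochberg adjustment over 22065 genes. The p-values measure only the spread between these libraries. All 7 genes had a log2 fold change below 0, with a median of -0.57, beside a median of -0.0015 over all genes tested, of which 50.6% were below 0. The number called was 0 of 7, and the share called among all genes was 0%. Before adjustment 1 of 7 had p under 0.05, as did 5.88% of all genes, and 0 of 7 had groups that did not overlap, as did 2.26% of all genes.

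The other members had wider relative errors or smaller differences. H2-Aa averaged 3.61 ± 1.92 CPM in ACLP-NT (SD, n = 5) and 5.40 ± 1.62 CPM in saline (SD, n = 4), a log2 difference of -0.58 with an interval of -1.52 to 0.35. H2-Ab1 averaged 3.23 ± 1.41 and 4.79 ± 1.78 CPM, a log2 difference of -0.57 with an interval of -1.35 to 0.20. H2-Eb1 averaged 2.74 ± 1.16 and 4.21 ± 1.89 CPM, a log2 difference of -0.62 with an interval of -1.64 to 0.40. Each of these chain intervals includes both no difference and a difference as large as that of Cd74.
For the editors, H2-DMb1 averaged 3.32 ± 0.667 and 4.31 ± 1.10 CPM (log2 difference -0.38, interval -0.82 to 0.07), and H2-DMa averaged 13.3 ± 1.14 and 14.6 ± 2.47 CPM (-0.14, interval -0.37 to 0.09). Ciita averaged 1.93 ± 0.155 CPM in ACLP-NT and 2.14 ± 0.565 CPM in saline, with a log2 difference of -0.14 and an interval of -0.54 to 0.25. The intervals of H2-DMa and Ciita exclude a log2 fall of the size estimated for Cd74, although the difference between genes was not itself tested.

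Single libraries moved these values. The Cd74 log2 difference was -0.62 without saline 19 and -1.03 without ACLP-NT 53, the ends of its range over the 13 libraries left out in turn. The edgeR p ran from 0.00592 to 0.0897 before adjustment, under 0.05 in 10 of 13 refits, and from 0.640 to 0.999 after it. Without saline 19 the H2-DMa difference was -0.01, H2-Ab1 -0.33, H2-Eb1 -0.32 and H2-DMb1 -0.20. Without ACLP-NT 53 it was -0.94 for H2-Aa and -0.87 for H2-Ab1. Ciita was at 0.014 without saline 32.

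In Aducanumab against saline the class II genes had differences on both sides of 0. Cd74 averaged 23.5 ± 10.5 CPM in Aducanumab (SD, n = 4), a log2 difference of 0.03 with an interval of -0.69 to 0.75. H2-Aa (6.04 ± 4.28 CPM) and H2-Ab1 (5.17 ± 2.70 CPM) had log2 differences of 0.16 and 0.11, H2-Eb1 (3.78 ± 3.31 CPM) and H2-DMb1 (3.82 ± 0.937 CPM) of -0.16 and -0.17, and H2-DMa (13.2 ± 1.12 CPM) of -0.15. Ciita had the largest difference, with 1.60 ± 0.246 CPM in Aducanumab, a log2 difference of -0.42 (SE 0.196) and an edgeR p of 0.0501 before and 0.9997 after adjustment. The number called was 0 of 7, with 0% of all genes called. Of the 7 genes, 4 were below 0, as were 48.7% of all genes, and 0 had p under 0.05 before adjustment, as did 4.68% of all genes. Groups that did not overlap were found for 0 of 7 and for 2.58% of all genes.

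The means of the chains and of Cd74 in Aducanumab rested on animal 58. Without it the log2 differences from saline were -0.31 for Cd74, -0.43 for H2-Aa, -0.30 for H2-Ab1 and -0.97 for H2-Eb1. The edgeR p of H2-Eb1 was then 0.0317 before and 0.859 after adjustment. H2-DMb1 was at -0.33 without this library and at 0.0059 without saline 19. Ciita was at -0.27 without saline 32 and kept its sign in all 13 refits.

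ACLP-NT against Aducanumab shares its libraries with the comparisons against saline, so its values are not a separate line of evidence. Cd74 had a log2 difference of -0.83 (SE 0.319, interval -1.52 to -0.15) with an edgeR p of 0.0206 before and 1 after adjustment. H2-Aa was at -0.75 (SE 0.436), H2-Ab1 at -0.68 (SE 0.361), H2-Eb1 at -0.47 (SE 0.476), H2-DMb1 at -0.20 (SE 0.209), H2-DMa at 0.01 (SE 0.108) and Ciita at 0.28 (SE 0.187). The number called was 0 of 7, with 0% called among all genes, and 1 of 7 had p under 0.05 before adjustment, as did 3.24% of all genes. Groups that did not overlap were found for 0 of 7 and for 1.34% of all genes. Of the 7 genes, 5 were below 0, as were 52.4% of all genes. Without Aducanumab 58 the difference was -0.50 for Cd74, -0.16 for H2-Aa, -0.28 for H2-Ab1 and -0.05 for H2-DMb1, and it turned to 0.35 for H2-Eb1.

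**Figure D2:**
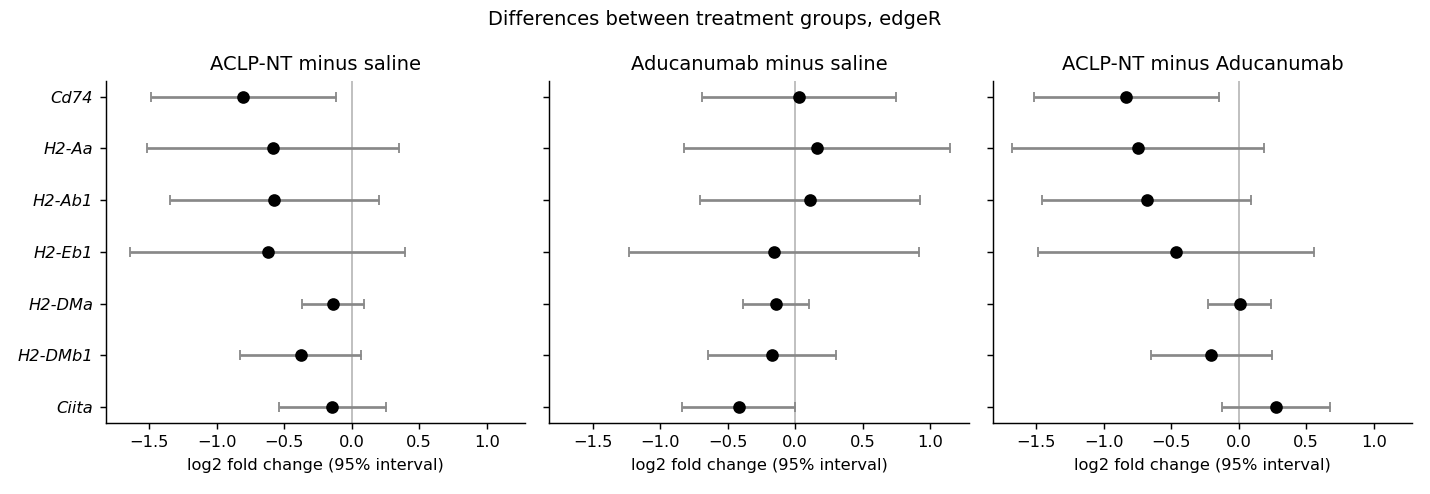
Log2 fold change between treatment groups (x axis) with its 95% interval from edgeR for each of the 7 genes (y axis), in 3 panels for the 3 comparisons. The intervals of Cd74 against saline (-1.49 to -0.12) and against Aducanumab (-1.52 to -0.15) exclude 0 before adjustment for the number of genes tested.

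The class II genes differed from each other in how much they varied between animals of the same treatment. The SD of log2 CPM within groups was 0.80 for H2-Eb1, 0.74 for H2-Aa, 0.60 for H2-Ab1 and 0.56 for Cd74, beside a median of 0.14 over 16185 genes with a mean of at least 1 CPM. Only 2.22%, 2.53%, 3.88% and 4.73% of these genes had a larger SD. H2-DMb1 (0.33) was exceeded by 15.9% of the genes, Ciita (0.25) by 25.2% and H2-DMa (0.16) by 42.0%. Between the lowest and highest of the 13 libraries, CPM differed 6.35-fold for H2-Eb1, 6.30-fold for H2-Aa and 4.86-fold for Cd74, against 1.57-fold for H2-DMa. Without Aducanumab 58 the SD was 0.59 for H2-Eb1, 0.62 for H2-Aa, 0.53 for H2-Ab1 and 0.50 for Cd74, and 3.79%, 3.43%, 4.99% and 5.85% of genes exceeded it. The fold between the lowest and highest library was then 4.81 for H2-Eb1, 3.79 for H2-Aa, 3.98 for Cd74 and 1.49 for H2-DMa.

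**Figure D3:**
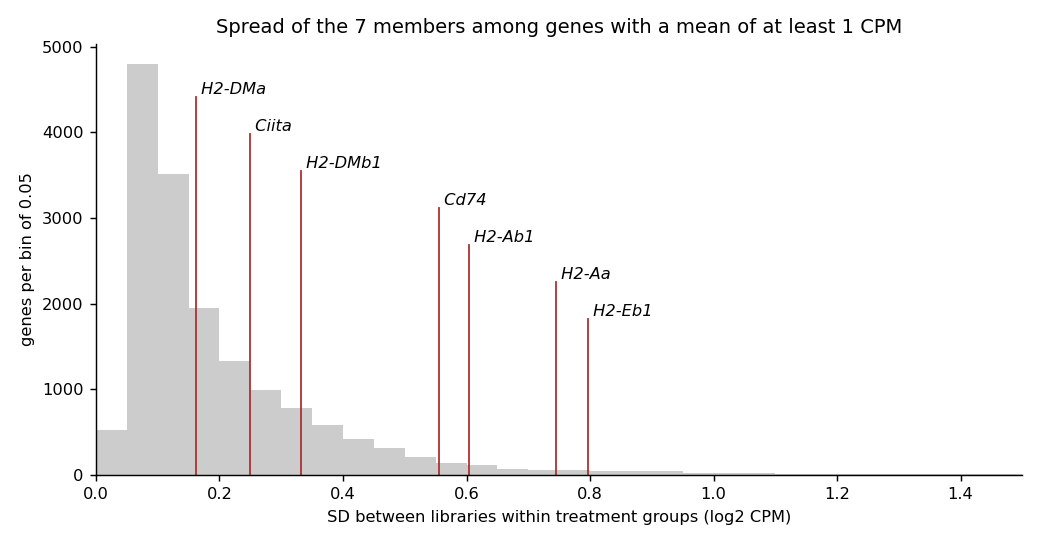
Number of genes (y axis) by the SD of log2 CPM between libraries within treatment groups (x axis, bins of 0.05), for genes with a mean of at least 1 CPM, with lines at the 7 class II genes. H2-DMa (0.16) lies near the bulk of genes, while Cd74, H2-Ab1, H2-Aa and H2-Eb1 lie between 0.56 and 0.80; genes with an SD above 1.5 are outside the axis.

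The level of Cd74 varied from animal to animal together with those of the chain genes and H2-DMb1. Over the 13 libraries, Pearson's r of log2 CPM with Cd74 was 0.94 for H2-Aa and 0.93 for H2-Ab1 (permutation p = 1e-05 each, the smallest that 100000 resamples can give, and 3e-05 adjusted over the 6 relations). It was 0.85 for H2-Eb1 (permutation p = 0.00033, adjusted 0.0006) and 0.85 for H2-DMb1 (permutation p = 0.0004, adjusted 0.0006). Spearman's rho was 0.92, 0.95, 0.80 and 0.73 for these 4 genes, with adjusted permutation p of 0.00024, 0.00012, 0.0033 and 0.00939. With each group's mean subtracted, r was 0.96 for H2-Aa, 0.93 for H2-Ab1, 0.94 for H2-Eb1 and 0.85 for H2-DMb1, with adjusted permutation p of 9e-05, 9e-05, 0.00016 and 0.00359, so the relations were present within treatments. Without ACLP-NT 27 and 55, the libraries farthest from the median of Cd74, r was 0.92, 0.96, 0.88 and 0.75.

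No relation with Cd74 was detected for H2-DMa or Ciita. For H2-DMa, r was 0.10 (permutation p = 0.741, adjusted 0.741; rho -0.03, permutation p = 0.935, adjusted 0.950), and for Ciita it was 0.16 (permutation p = 0.608, adjusted 0.729; rho -0.02, permutation p = 0.950, adjusted 0.950). With group means subtracted r was -0.05 for H2-DMa and 0.40 for Ciita (adjusted permutation p = 0.870 and 0.175). Without ACLP-NT 27 and 55 the plain r was 0.07 and 0.30. Leaving out 1 library at a time moved r for H2-DMa between -0.36 and 0.39 and for Ciita between 0.0062 and 0.22, while it stayed between 0.79 and 0.96 for the 3 chains and between 0.81 and 0.90 for H2-DMb1. Within groups of 4 or 5 libraries, given as a description, r of H2-DMa with Cd74 was 0.87 in saline, -0.76 in Aducanumab and -0.31 in ACLP-NT, and that of Ciita was 0.38, 0.86 and 0.13.

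**Figure D4:**
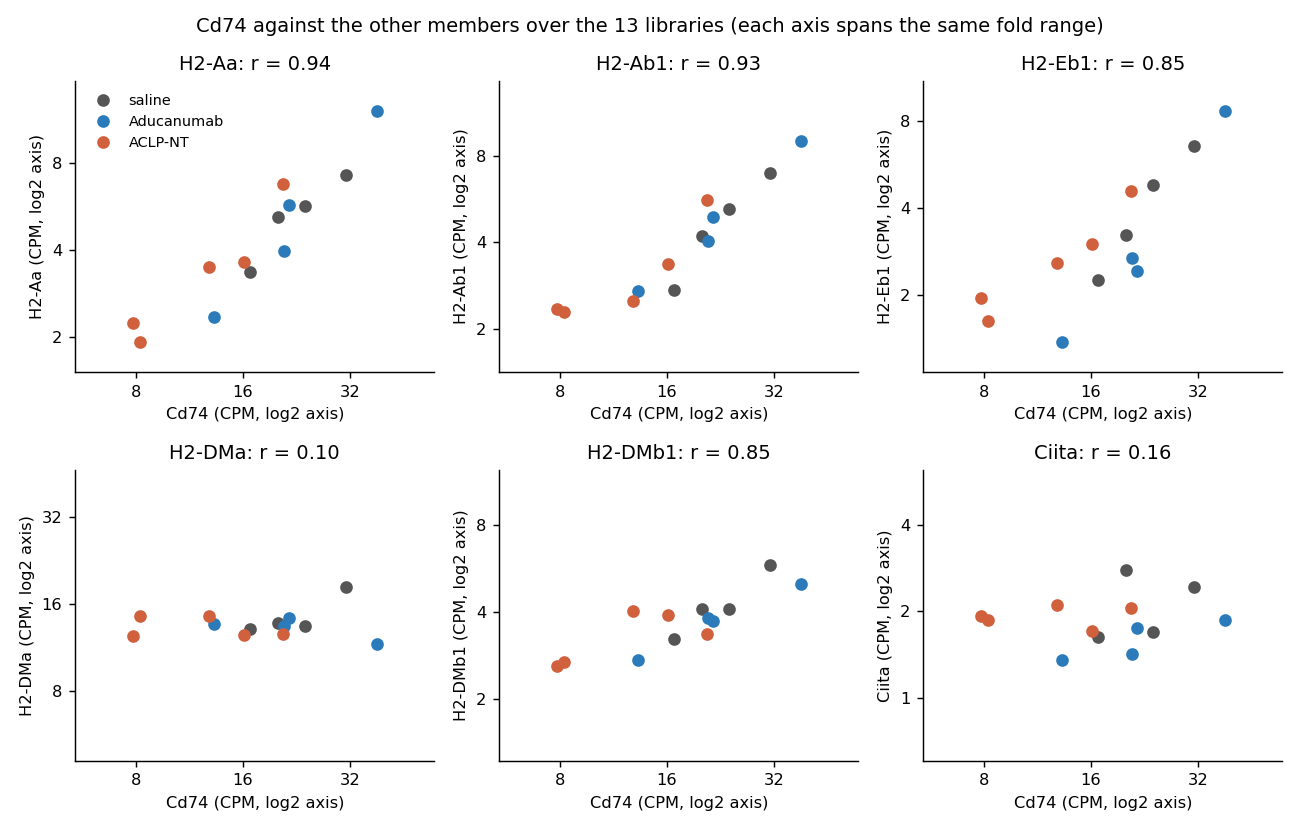
CPM of 6 class II genes (y axes, log2) against CPM of Cd74 (x axis, log2) in the 13 libraries, coloured by treatment, with all axes spanning the same fold range. H2-Aa, H2-Ab1, H2-Eb1 and H2-DMb1 climb with Cd74 (r from 0.85 to 0.94), while r was 0.10 for H2-DMa and 0.16 for Ciita.

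When 16184 genes with a mean of at least 1 CPM were ordered by r with Cd74 after subtracting group means, H2-Aa was the closest, H2-Eb1 was at rank 3, H2-Ab1 at rank 4 and H2-DMb1 at rank 35. Ciita was at rank 3317 and H2-DMa at rank 8517. From the side of H2-Aa, the closest genes were Cd74, H2-Ab1 and H2-Eb1, in this order. These ranks are a description over 13 libraries that share their processing.

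H2-DMa overlaps Brd2, a bromodomain gene on the opposite strand, over 3079 bases in the deposited table, and Brd2 was at 187.7 to 209.8 CPM. Ciita overlaps Dexi on the opposite strand over 23896 bases, and Dexi was at 24.8 to 32.2 CPM, above the 1.35 to 2.78 CPM of Ciita. These overlaps are of whole gene spans from start to end, introns included, and shared exons were not looked up. No label or header says whether counting used strand, so reads from exons shared with an antisense partner may not be told apart. The part of this overlap in the values of H2-DMa and Ciita was not tested. Cd74 overlaps only the microRNA gene Mir5107, which was at no more than 0.068 CPM, and no overlap was found for the 3 chains or H2-DMb1. Class II genes are close paralogs, H2-DMb1 and H2-DMb2 above all, and how reads shared by them were counted is not given either.

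Other genes of the class II pathway were read from lists of chains, peptide processing, transcription and costimulation. None of the genes tested in these lists passed the adjusted threshold in any comparison (0% of all genes were called in each). Among the 3 other class II chains tested, H2-Oa and H2-Ob, which form the DO heterodimer that inhibits DM, averaged 1.18 ± 0.419 CPM and 2.31 ± 0.838 CPM in ACLP-NT (SD, n = 5) against 2.07 ± 0.510 CPM and 3.29 ± 0.237 CPM in saline (SD, n = 4). Their log2 differences were -0.80 (SE 0.265, edgeR adjusted p = 0.746, with 0.00892 before adjustment) and -0.51 (SE 0.258, adjusted p = 0.848). H2-DMb2, a second DM beta chain, was at 0.09. In Aducanumab, H2-Oa and H2-Ob averaged 1.44 ± 0.22 CPM and 2.46 ± 0.855 CPM (SD, n = 4), also below saline. The smallest p of these chains was that of H2-Oa in both other comparisons. Before adjustment its edgeR p was 0.0841 in Aducanumab against saline and 0.308 in ACLP-NT against Aducanumab. H2-Eb2, whose promoter has the exact X1 and Y pair shown above, was listed at 0 in 10 of 13 libraries and reached 4 counts at most.

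Of the 10 peptide processing genes tested, 8 had a log2 difference below 0 in ACLP-NT against saline and 3 had an edgeR p under 0.05 before adjustment, all lower, beside 50.6% and 5.88% of all genes. These were Ctss (-0.45, SE 0.165), the cathepsin that trims the invariant chain, Lgmn (-0.24), the asparagine endopeptidase, and Ctsb (-0.23). Ifi30, the lysosomal thiol reductase, was at -0.41 (edgeR adjusted p = 0.878). In Aducanumab against saline 8 of 10 were below 0 and 1, Ctsb (-0.17), had p under 0.05 before adjustment, beside 48.7% and 4.68% of all genes. In ACLP-NT against Aducanumab 8 of 10 were below 0, beside 52.4% of all genes, and the smallest p was that of Ctsl (-0.18, edgeR adjusted p = 1).

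The transcription list held the DNA-binding partners of CIITA and the interferon gamma axis that is known to induce it. Of its 20 genes 19 were tested, of which 11 were below 0 in ACLP-NT against saline and 2 had p under 0.05 before adjustment, beside 50.6% and 5.88% of all genes. Irf8, a myeloid interferon regulatory factor, was at 19.0 ± 3.71 CPM in ACLP-NT (SD, n = 5) and 25.3 ± 2.91 CPM in saline (SD, n = 4), a log2 difference of -0.41 (SE 0.137, edgeR adjusted p = 0.746), and all 5 ACLP-NT libraries lay below all 4 saline libraries (groups did not overlap for 2.26% of all genes). Nfyc, a subunit of the Y box factor, was at 0.13 (edgeR adjusted p = 0.839). Rfx5 (-0.07), Rfxap (0.05) and Rfxank (0.0037), the subunits of the X box factor, were near 0, and Irf1 was at -0.23. Ifng itself was listed at 0 in 10 of 13 libraries and reached 8 counts at most, so it was not tested. In Aducanumab against saline 13 of 19 were below 0, beside 48.7% of all genes, and Irf8 was at -0.37 (edgeR adjusted p = 0.9997). In ACLP-NT against Aducanumab 10 of 19 were below 0, near the 52.4% of all genes, with the smallest p at Nfyc (0.09, edgeR adjusted p = 1).

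The costimulation list mixed genes whose products help to activate T cells, such as Cd86, with genes whose products restrain them, such as Cd274. Of its genes, 5 of 5 tested were below 0 in ACLP-NT against saline, beside 50.6% of all genes. Cd86 was at -0.44 (SE 0.197, edgeR adjusted p = 0.831). Against saline, Aducanumab had 3 of 5 below 0, beside 48.7% of all genes, with Cd86 at -0.31 (edgeR adjusted p = 0.9997). Against Aducanumab, ACLP-NT had 4 of 5 below 0, beside 52.4% of all genes, with Cd274 at -0.20 (edgeR adjusted p = 1).

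Markers of the cells that can carry class II were present to very different degrees. All 10 microglia markers were tested, and their sum was 956 to 1152 CPM in saline, 789 to 957 CPM in Aducanumab and 686 to 970 CPM in ACLP-NT. Against saline, 10 of 10 were below 0 and 7 of 10 had an edgeR p under 0.05 before adjustment both in ACLP-NT (median log2 difference -0.28) and in Aducanumab (median -0.29), beside 50.6% and 48.7% of all genes below 0 and 5.88% and 4.68% with p under 0.05. The Cd74 difference was -0.80 in ACLP-NT and 0.03 in Aducanumab, or -0.31 without Aducanumab 58. The 10 genes of the plaque-associated microglial state summed to 2062 to 2489 CPM in saline, 1852 to 2615 CPM in Aducanumab and 1705 to 2197 CPM in ACLP-NT. In ACLP-NT against saline 10 of 10 were below 0 (median -0.39, beside 50.6% of all genes). In Aducanumab against saline 9 of 10 were below 0 (median -0.24, beside 48.7% of all genes). The 10 markers of border-associated macrophages, 9 of them tested, summed to 30.6 to 44.1 CPM in saline, 27.6 to 62.7 CPM in Aducanumab and 32.8 to 42.4 CPM in ACLP-NT. The part of these cells in the class II values was not tested, and in bulk RNA fewer cells of a type and less RNA per cell cannot be told apart.

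Markers of other antigen-presenting and lymphoid cells ranged from near 0 to well above it. Of the dendritic cell list, Xcr1 had 0 to 5 counts, Ccr7 0 to 19 counts and Clec9a 21 to 59 counts in a library. Flt3 (8.75 to 15.1 CPM), Naaa (37.3 to 55.6 CPM) and Fscn1 (104 to 137 CPM) were far higher, and which cells their reads came from was not tested. Of the B cell list, Ms4a1 had 0 to 18 counts and was at 0 in 8 of 13 libraries, Cd22 had 63 to 192 counts, and Ighm was at 15.0 to 29.3 CPM. Of the T cell genes, Cd3e had 0 to 22 counts and Trac 20 to 83 counts. The summed B cell list was 27.9 to 33.5 CPM in saline, 21.7 to 27.5 CPM in Aducanumab and 17.2 to 28.5 CPM in ACLP-NT, and the dendritic cell list 189 to 200, 179 to 188 and 178 to 190 CPM. The T and NK cell list summed to 1.78 to 2.71, 1.54 to 3.50 and 1.61 to 2.25 CPM. Monocyte and neutrophil markers summed to 0.646 to 1.71, 0.799 to 5.55 and 0.909 to 1.67 CPM, with 4 to 7 of 9 markers at 0 in saline libraries and 0 at 0 in Aducanumab 58.

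No marker sum tracked Cd74 across libraries as the chain genes did. The relations of Cd74 with 9 summed marker lists were computed after the data had been seen. Each sum adds the CPM of its genes as they stand, so the highest gene weighs most. Mean CPM was 1767 for Apoe in the plaque-associated list and 1986 for Ttr in the choroid plexus list. Fscn1 averaged 119 CPM in the dendritic cell list, Stab1 24.5 CPM in the border-associated macrophage list and Ighm 22.75 CPM in the B cell list. For these lists r reflects mainly such genes, and a relation with cell types was not tested. The largest r was 0.66 for the plaque-associated microglial state (permutation p = 0.0148, adjusted over 9 relations 0.116; rho 0.61, permutation p = 0.0295, adjusted 0.259). Meningeal fibroblast markers gave 0.61 (permutation p = 0.0258, adjusted 0.116; rho 0.48, permutation p = 0.102, adjusted 0.259). For microglia r was 0.39 and for border-associated macrophages 0.40 (adjusted permutation p = 0.280 for both). With group means subtracted, r was 0.71 for choroid plexus and 0.70 for meningeal fibroblasts (adjusted permutation p = 0.0817 for both). These values were not computed without Aducanumab 58, where the plain r for choroid plexus was 0.24. Without ACLP-NT 27 and 55, r was 0.50 for the plaque-associated state, 0.55 for meningeal fibroblasts, 0.18 for microglia, 0.60 for border-associated macrophages and 0.66 for monocytes and neutrophils, the highest of the 9 lists.
Without Aducanumab 58, which held the highest sums of border-associated macrophage (62.7 CPM) and meningeal fibroblast (413.3 CPM) markers, r was 0.04 for the former, 0.46 for the latter, 0.53 for the plaque-associated state and 0.25 for monocytes and neutrophils, and B cells had the highest (0.55).

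**Figure D5:**
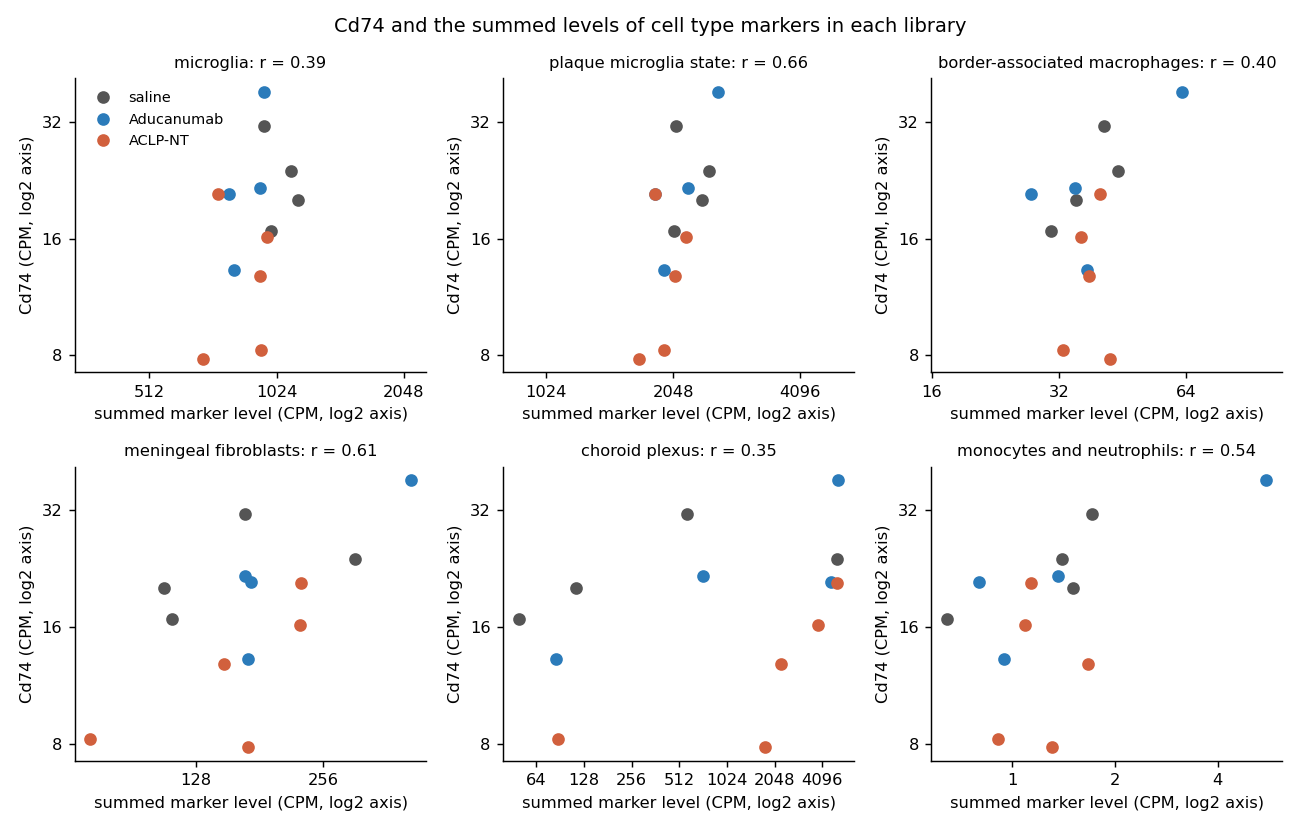
CPM of Cd74 (y axes, log2) against the summed CPM of 6 cell type marker lists (x axes, log2) in the 13 libraries, coloured by treatment. Aducanumab 58 is the top point in every panel and lies to the right for border-associated macrophages (62.7 CPM) and meningeal fibroblasts (413.3 CPM), and no r reaches that of H2-Aa (0.94).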

How the data were processed

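Poly(A) RNA from 13 hippocampi was analysed in 3 groups. Counts are whole numbers per gene, deposited by the authors without normalization. The deposited FPKM values come from the authors, who divided fragments by gene length and library total, per the file headers. Per the submitters' processing notes, cutadapt 1.9, HISAT2 2.0.4, StringTie 1.3.4d and edgeR were used. Not given in the sources used here are the counter, strand setting, annotation and build.

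Counts were filtered with filterByExpr (22065 genes), TMM-scaled and tested with the edgeR 4.0.16 quasi-likelihood test, two-sided, with all groups in 1 fit and Benjamini-Hochberg adjustment (threshold 0.05). The SE is the absolute log2 fold change over the square root of F. Correlations used log2 CPM with a prior count of 2. Library pairs within a group all differed beyond the sampling noise of independent counts (smallest chi-square over its degrees of freedom 14.0). Methods were tested on simulated data. Alternatives were no filter, a mean CPM minimum of 1, scaling by upper quartile or RLE, robust dispersion fitting, fits of 2 groups alone, DESeq2 1.42.0, limma 3.58.1 on log2(FPKM + 1) and log2(FPKM + 0.1), and each library left out. The removal of Aducanumab 58 from spreads, ratios and marker relations was chosen after seeing the data.

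The members and lists were chosen with earlier results of these data known. All 7 members were named, with the gene of smallest p in each pathway list, all other class II chains, Rfx5, Irf1, Irf8, Ctss, Ifi30, Lgmn and Ifng, and the 10 genes most like Cd74. Some genes that the rule names are not reported here. Other named genes were chosen after their values were seen. Promoters came from RefSeq (GRCm38.p6). Counting errors and intervals of counts cover counting error only.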

Additional observations from a re-analysis of the deposited data

Results flagged for a closer look

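H2-DMa was at 18.3 CPM in saline 19, and the next highest of the 4 saline libraries was at 13.7 CPM, a gap of 0.876 of the group's whole range. This library stood farther from its group than Dixon's 95% critical value for 4 samples allows. It was the 1 case among 21 groups examined (7 genes in 3 treatments), and chance gives about 1 in 20 groups. Saline 19 was also the highest saline library for Cd74, H2-Aa, H2-Ab1, H2-Eb1 and H2-DMb1.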

How the results depend on the processing

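The class II genes called remained 0 of 7 in all 3 comparisons under every alternative run. The number of calls among all genes was 0 with edgeR and, with DESeq2, 12 in ACLP-NT against saline, 19 in Aducanumab against saline and 3 in ACLP-NT against Aducanumab, none of them a class II member. It was 0 to 1 in each comparison when single libraries were left out (1 against saline in both treatments without saline 32, and 1 in both Aducanumab comparisons without ACLP-NT 49), and 0 with limma. At an unadjusted p under 0.05, DESeq2 gave 1, 0 and 2 of the 7 genes in these comparisons, and limma 1, 0 and 1. Ciita in Aducanumab against saline lay at this threshold. Its unadjusted p was under 0.05 in 2 of 9 other alternatives and in 3 of 13 edgeR refits with a library left out (smallest edgeR p 0.0188). The sign of some differences turned. In Aducanumab against saline, limma on log2(FPKM + 1) gave -0.029 for Cd74, and limma on log2(FPKM + 0.1) gave -0.036 for Cd74 and -0.029 for H2-Aa. With 1 library left out, the log2 difference in Aducanumab against saline ran from -0.31 to 0.22 for Cd74, -0.43 to 0.43 for H2-Aa, -0.30 to 0.35 for H2-Ab1, -0.97 to 0.14 for H2-Eb1 and -0.33 to 0.0059 for H2-DMb1. It ran from -0.25 to 0.014 for Ciita in ACLP-NT against saline, and in ACLP-NT against Aducanumab from -0.74 to 0.35 for H2-Eb1 and from -0.050 to 0.044 for H2-DMa. The cause was not tested. In ACLP-NT against saline, Cd74 ran from -0.86 to -0.77 under the 9 other alternatives, with p under 0.05 before adjustment in 9 of 9, and in 10 of 13 with a library left out. No paired analysis was possible because the groups share no replicate number in the labels. Depth limits Ciita and H2-Eb1 most, at 77 and 78 counts in their lowest libraries.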

Other observations

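Outside the class II genes, the 10 genes whose level was most like that of Cd74, among 13951 genes with a mean of at least 1 CPM and no pseudogenes or predicted genes, were Sdc1, Irak1, Suclg2, Traf5, Arl4a, Gstt2, Stk35, Stat6, H2-Q4 and Garre1. Their r with Cd74 over 13 libraries after subtracting group means ran from 0.94 (Sdc1) to 0.89 (Garre1), with no test, since they were picked from many genes for this value. Sdc1, which encodes syndecan-1, a surface proteoglycan known as a plasma cell marker, ran from 0.557 to 3.52 CPM. Stat6, the transcription factor of interleukin-4 signalling, ran from 10.6 to 20.6 CPM, with r of 0.90 after subtracting group means and 0.85 before. H2-Q4, an MHC class I gene, ran from 7.34 to 15.2 CPM, with r of 0.89 and 0.81. For Arl4a and Stk35 r was 0.90 each after subtracting group means and 0.38 and 0.39 before.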
